A study of Homo sapiens with 18 samples.

Results

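The entries described here are 5 rows of a gene count table that come from the ribosomal DNA repeats on chromosome 21, FP671120.3, FP671120.4, FP236383.3, MIR6724-1 and MIR6724-4. They were 5 of 54425 genes in the table, and all 5 were among the 17660 genes with enough counts to be tested. They were selected on their counts, because they had been called in co-expression against MLL-AF4 cells on either day or in AF4-MLL against MLL-AF4 cells on day 28, so their values in those comparisons are given here as a description without a test. The comparisons tested below, AF4-MLL against MLL-AF4 cells on day 3 among them, use some of the same libraries and are therefore not independent of that choice. Each of them reuses a group of those comparisons, so a number of called entries can be partly set by the choice.

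Chromatin accessibility was measured by ATAC-seq, in which a transposase cuts and tags open DNA, in 18 libraries of HEK293T cells, an established human embryonic kidney cell line. MLL-AF4 cells carried an inducible MLL-AF4 construct, AF4-MLL cells carried an inducible AF4-MLL construct, and co-expression cells carried a constitutive MLL-AF4 construct with inducible AF4-MLL. Both fusions arise from the chromosomal translocation t(4;11) of acute leukemia. The labels call the cells stably transfected, whereas the study's methods describe AF4-MLL as brought transiently into cells that carried MLL-AF4 stably and as lost from them later. Doxycycline at 1 µg/ml induced the inducible ones during 48 h, and each setting had 3 libraries on day 3 and 3 on day 28. In all co-expression libraries MLL-AF4 therefore stayed on, whereas in MLL-AF4 cells it was on only during the induction. No mock-transfected cells were analysed here, so settings were compared with each other and days with each other. The labels number the libraries as biological replicates without saying whether they were separate transfections, so the p-values measure the spread between these libraries. Libraries of a group were compared in pairs by a chi-square per gene, which is near 1 where only counting error separates them. It was 1.09 to 1.24 within both MLL-AF4 groups and 1.10 to 3.23 within the others. The MLL-AF4 libraries of a day thus differed little beyond counting error at their depth. Whether they were separate cultures was not tested. Counts of reads on genes are not expression, and the cell line was not checked against markers.

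Human ribosomal RNA is transcribed by RNA polymerase I in the nucleolus from many copies of a repeat on the short arms of the acrocentric chromosomes. Each repeat yields a 45S precursor that is cut into the 18S, 5.8S and 28S ribosomal RNAs, and cells keep part of the repeats closed and part open. Because the copies are nearly identical, a read from any of them, on any of these chromosomes, could be counted at a listed copy. The entries are therefore not independent of each other, and a count does not separate the number of repeats in the cells from how open each repeat was.

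MIR6724-1 and MIR6724-4 are 2 of 4 listed copies of a microRNA gene upstream of the 45S precursor. In RefSeq on GRCh38.p14 MIR6724-1 lies at chr21:8205315-8205406 and MIR6724-4 at chr21:8432530-8432621, both 92 bases long. MIR6724-1 ends 581 bases before the 45S gene RNA45SN2, and MIR6724-4 ends 600 bases before RNA45SN1. The hairpin and its mature miRNA are shown because a GC measure of the libraries is described with the values. The first sequence has the seed, bases 2 to 8, in capitals, and the second has the mature miRNA in capitals.
hsa-miR-6724-5p: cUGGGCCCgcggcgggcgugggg
MIR6724-4 hairpin: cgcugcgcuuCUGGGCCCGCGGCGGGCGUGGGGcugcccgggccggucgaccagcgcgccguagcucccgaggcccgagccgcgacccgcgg
The RefSeq hairpin of MIR6724-2 was identical to that of MIR6724-4 over all 92 bases. G and C made up 83.7% of the hairpin, and only 0.96% of 1562 RefSeq miRNA hairpins had as high a share (median 52.1%). MIR6724-1 is named without a sequence.

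The 3 FP entries carry clone-based names and are annotated inside or beside the 18S part of the repeat. FP671120.3 lies inside RNA18SN2 (chr21:8209631-8211499) and FP236383.3 inside RNA18SN1 (chr21:8436876-8438744), the genes of the small-subunit ribosomal RNA. FP671120.4 lies in the repeat that follows MIR6724-2, for which RefSeq lists no 18S gene. Another copy of the same kind, FP236383.2, lies inside RNA18SN3 and is not one of the 5 entries. Each repeat unit therefore held 1 FP entry of this kind and 1 MIR6724 entry upstream of it, 4 of each in all.

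Total counts ran from 442159 to 3539937 per library, and mitochondrial genes took 32.7% to 45.6% of the counts on day 3 but 63.6% to 68.5% of them on day 28. Values are given as CPM, the read count relative to a library size adjusted by TMM (trimmed mean of M-values), and a called entry has a Benjamini-Hochberg adjusted p under 0.05 in edgeR's quasi-likelihood test over all tested genes. The FP entries had between 114 and 529 counts per library among the 5 entries, and the MIR6724 entries between 0 and 43, so the second kind rests on far fewer reads. A count of 0, as for MIR6724-4 in co-expression day 3 replicate 2, allows up to 3 counts, and such limits cover counting error only.

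**Figure D1:**
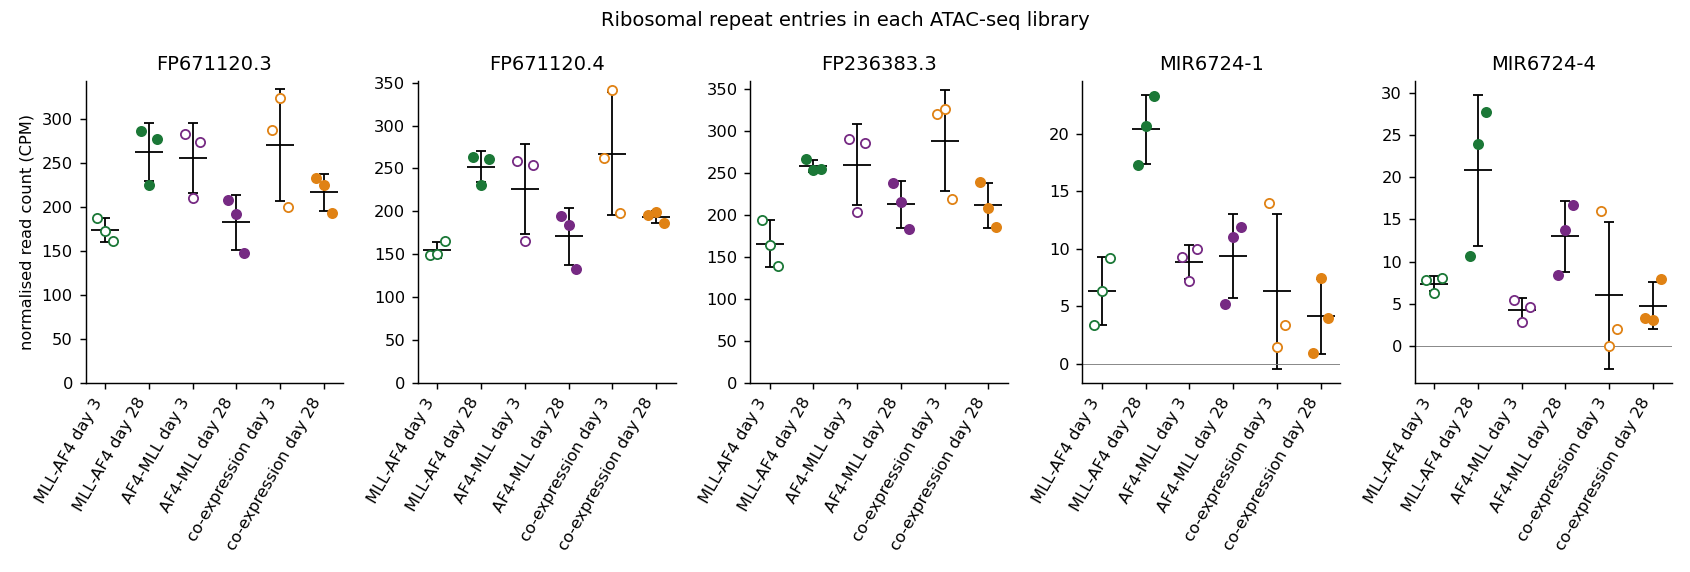
Normalised read count (CPM, vertical axis, starting at or below 0) of each of the 5 entries in the 18 libraries. Each point is 1 library, open on day 3 and filled on day 28, and bars give mean ± SD of 3 libraries. In the group means the FP entries lay lowest in MLL-AF4 cells on day 3, and the MIR6724 entries highest in MLL-AF4 cells on day 28. Single libraries did not all keep this order.

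In MLL-AF4 cells all 5 entries rose from day 3 to day 28, where 2.87% of all tested genes were called and 1.29% were called higher. The choice of the entries favoured low MLL-AF4 libraries on day 3 or high ones on day 28. The number of calls and the adjusted p given for this change are therefore partly set by that choice. FP671120.3 had 187, 173 and 161 CPM on day 3 and 286, 225 and 277 CPM on day 28. FP671120.4 had 148, 149.7 and 165 CPM on day 3 and 264, 231 and 261 CPM on day 28. FP236383.3 had 194, 164 and 139 CPM on day 3 and 266, 253 and 254 CPM on day 28. Every day 28 library lay above every day 3 library for these 3 entries of the 18S region, as for 9.67% of all tested genes. The log2 change was 0.59 ± 0.13 (SE) for FP671120.3 (adjusted p = 0.00099), 0.70 ± 0.13 for FP671120.4 (adjusted p = 3e-05) and 0.64 ± 0.13 for FP236383.3 (adjusted p = 0.00024).

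The MIR6724 entries rose further but from few counts. MIR6724-1 had 3.35, 6.34 and 9.25 CPM on day 3 and 17.3, 20.6 and 23.3 CPM on day 28. MIR6724-4 had 7.81, 6.34 and 8.09 CPM on day 3 and 10.7, 24.0 and 27.7 CPM on day 28. The days did not overlap for these entries, although the lowest day 28 library of MIR6724-4, replicate 1, stood close to day 3. The log2 change was 1.68 ± 0.39 (SE) for MIR6724-1 (adjusted p = 0.0027) and 1.49 ± 0.38 for MIR6724-4 (adjusted p = 0.0095). MIR6724-4 lost its call without MLL-AF4 day 3 replicate 1 or 2 or day 28 replicate 2 or 3 (adjusted p 0.0603 to 0.0818), and MIR6724-1 without day 3 replicate 1 (adjusted p = 0.087). The FP entries were called in all 6 such refits.

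The rise of the FP entries in MLL-AF4 cells is relative to the other genes. When counts were scaled by library size alone, the median of all tested genes changed by -0.87 from day 3 to day 28 in these cells, and the FP entries had log2 changes of -0.28, -0.18 and -0.24, which reversed the sign. Relative to that median they changed by 0.59, 0.70 and 0.63. Relative to the counts outside the mitochondrial genes alone, the sum of the 5 entries was 1143 ± 64.7 CPM (SD, n = 3) on day 3 and 1621 ± 107 CPM on day 28.

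In AF4-MLL cells the FP entries moved the other way. FP671120.3 had 283, 209.7 and 274 CPM on day 3 and 208, 192 and 148 CPM on day 28, with no overlap, and 7.09% of all tested genes lay entirely lower on day 28 in this way. FP671120.4 had 259, 165 and 254 CPM on day 3 and 195, 185 and 133 CPM on day 28, and day 3 replicate 2 lay inside the day 28 range. Both fell, by 0.51 ± 0.12 (SE) on the log2 scale (adjusted p = 0.0048) and by 0.44 ± 0.12 (adjusted p = 0.034), in a comparison where 0.606% of all tested genes were called and 0.153% were called lower. FP236383.3 had a log2 change of -0.32 ± 0.12 and missed the threshold (adjusted p = 0.26). The called entries were 2 of 5. No entry was called without day 28 replicate 3, day 3 replicate 1 or day 3 replicate 3, and 1 was called without day 28 replicate 2. The 2 called entries were chosen in part because these AF4-MLL libraries of day 28 stood low against MLL-AF4 cells. The calls and their adjusted p are therefore partly set by that choice.

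The MIR6724 entries did not follow the FP entries in AF4-MLL cells. MIR6724-4 had 5.48, 2.89 and 4.62 CPM on day 3 and 8.47, 13.8 and 16.7 CPM on day 28, a log2 change of 1.45 ± 0.40 (SE) that missed the threshold (adjusted p = 0.059). It was called when only these 2 groups entered the fit (adjusted p = 0.019) and without day 28 replicate 1 (adjusted p = 0.017). MIR6724-1 had 9.32, 7.23 and 10.02 CPM on day 3 and 5.21, 11.0 and 11.9 CPM on day 28, with overlapping days and a log2 change of 0.04 ± 0.36 (adjusted p = 0.99).

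In co-expression cells 2 of 5 entries fell from day 3 to day 28, where 0.606% of all tested genes were called and 0.170% were called lower. FP671120.4 had 262, 342 and 198 CPM on day 3 and 195, 199 and 186 CPM on day 28. FP236383.3 had 320.0, 327 and 219 CPM on day 3 and 239, 209 and 186 CPM on day 28. The days overlapped for both, since day 3 replicate 3 stood low. FP671120.4 fell by 0.45 ± 0.11 (SE) on the log2 scale (adjusted p = 0.019) and FP236383.3 by 0.42 ± 0.11 (adjusted p = 0.045). DESeq2's Wald test and a fit of only these 2 groups called none of the entries. In that fit only the 3 FP entries had enough counts to be tested, and DESeq2 gave the MIR6724 entries no adjusted p. Neither FP671120.4 nor FP236383.3 was called without day 28 replicate 2, day 28 replicate 3 or day 3 replicate 2. Without day 28 replicate 1 or day 3 replicate 1 only 1 entry was called. The FP entries were chosen in part because these co-expression libraries of day 3 stood high against MLL-AF4 cells. The calls of this day comparison and their adjusted p are therefore partly set by that choice.

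FP671120.3 had 287, 324 and 200.1 CPM on day 3 and 233, 225 and 193 CPM on day 28, a log2 change of -0.30 ± 0.11 that was not called (adjusted p = 0.31). MIR6724-1 had 14.0, 1.49 and 3.42 CPM on day 3 and 0.94, 7.47 and 3.99 CPM on day 28. MIR6724-4 had 15.998, 0 and 2.05 CPM on day 3 and 3.29, 3.11 and 7.98 CPM on day 28. Day 3 replicate 1 was high and day 3 replicate 2 nearly empty for both, and neither was called (adjusted p 0.63 and 0.72). Without day 3 replicate 1 the log2 change turned from -0.75 to 0.59 for MIR6724-1 and from -0.62 to 1.82 for MIR6724-4, again without a call.

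On day 3 the FP entries were higher in AF4-MLL cells than in MLL-AF4 cells, 3 of 5 entries in a comparison where 0.142% of all tested genes were called and 0.0623% were called higher. The FP entries were chosen in part because these MLL-AF4 libraries of day 3 stood low against co-expression cells. The number of calls is therefore partly set by that choice. The log2 difference was 0.58 ± 0.13 (SE) for FP671120.3 (adjusted p = 0.016), 0.59 ± 0.13 for FP671120.4 (adjusted p = 0.016) and 0.68 ± 0.13 for FP236383.3 (adjusted p = 0.0013). The groups did not overlap for FP671120.3 and FP236383.3, as for 7.2% of all tested genes in that direction, while for FP671120.4 the AF4-MLL library at 165 CPM, replicate 2, met the highest MLL-AF4 library. No entry was called without AF4-MLL day 3 replicate 1 or 3 or MLL-AF4 day 3 replicate 2, and 1 was called without MLL-AF4 day 3 replicate 1 or 3. DESeq2's Wald test called none of the 5 and 2 genes in all. MIR6724-1 (log2 0.54 ± 0.46) and MIR6724-4 (log2 -0.65 ± 0.52) were not called.

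Co-expression and AF4-MLL cells were compared on both days. On day 3 edgeR's test called 0 of 5 entries, where 1.28% of all tested genes were called; 0 of the 5 had an unadjusted p under 0.05, and DESeq2 also called 0. The log2 differences of the FP entries lay between 0.05 and 0.19, each with an SE of 0.11. On day 28 only MIR6724-4 was called, where 1.69% of all tested genes were called. It was lower in co-expression cells by a log2 difference of -1.66 ± 0.40 (SE, adjusted p = 0.0085), with all co-expression libraries below all AF4-MLL libraries, as for 8.4% of all tested genes. An unadjusted p under 0.05 was found for 3 of the 5 entries and for 2243 of the 17660 genes. MIR6724-1 differed by -1.28 ± 0.42 and missed the threshold (adjusted p = 0.096). Both MIR6724 entries were chosen because these co-expression libraries of day 28 stood low against MLL-AF4 cells. The call and the adjusted p against AF4-MLL cells on day 28 are therefore partly set by that choice.

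The call of MIR6724-4 in that comparison rested on single libraries. It was lost without AF4-MLL day 28 replicate 2 or 3 or co-expression day 28 replicate 1 or 2 (adjusted p 0.052 to 0.16). MIR6724-1 was called without AF4-MLL day 28 replicate 1 (adjusted p = 0.045) or without co-expression day 28 replicate 2 (adjusted p = 0.017). The change from day 3 to day 28 was not called to differ between co-expression and AF4-MLL cells for any of the 17660 tested genes in edgeR or in DESeq2. An unadjusted p under 0.05 was found for 892 genes, 1 of them an entry, MIR6724-4, with a log2 difference of -2.07 ± 0.63 (adjusted p = 0.81).

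The following comparisons were those that chose the entries, and their values are given without a test. On day 3 the FP entries were higher in co-expression than in MLL-AF4 cells by log2 differences of 0.64, 0.79 and 0.80, and 1.81% of all tested genes were called there. On day 28 MIR6724-1 and MIR6724-4 were lower in co-expression than in MLL-AF4 cells by log2 differences of -2.39 and -2.35, and 1.17% of all tested genes were called. With the library GC measure described below as a term in the fit these were -0.38 and 0.02. On day 28 FP671120.3 and FP671120.4 were lower in AF4-MLL than in MLL-AF4 cells by -0.51 and -0.55, and 0.0793% of all tested genes were called. The entries just outside the called set in that last comparison were MIR6724-1 at -1.11, FP236383.3 at -0.28 and MIR6724-4 at -0.69.

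The change over time relative to MLL-AF4 cells contains those comparisons and is a description too. Relative to MLL-AF4 cells the FP entries changed by -0.88, -1.15 and -1.06 in co-expression cells, where 0.232% of all tested genes were called, and by -1.10, -1.14 and -0.96 in AF4-MLL cells, where 0.317% were called. MIR6724-1 changed by -2.44 and MIR6724-4 by -2.11 in co-expression cells, with ranges of -3.52 to -1.09 and -2.64 to 0.34 when 1 library was left out and values of 0.10 and 0.99 with the GC term. In AF4-MLL cells these 2 entries parted, with -1.65 for MIR6724-1 and -0.04 for MIR6724-4, which became 0.38 and 2.34 with the GC term. Both descriptions share the MLL-AF4 libraries, which stood lowest of the 3 settings on day 3 and highest on day 28 in the mean of each FP entry.

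Between the days MLL-AF4 cells therefore went from the lowest to the highest mean of the settings for the 18S region. The choice of the entries favoured such a change. On day 3 the mean of FP671120.3 was 174 ± 13.4 CPM (SD, n = 3) in MLL-AF4, 255 ± 39.8 in AF4-MLL and 270 ± 63.5 in co-expression cells. On day 28 it was 263 ± 33.1 CPM in MLL-AF4, 217 ± 21.1 in co-expression and 182 ± 31.0 in AF4-MLL cells. The FP671120.3 mean of AF4-MLL cells lay below that of co-expression cells on both days, and their difference was not called on either.

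The summed counts of the 4 FP copies were divided unevenly in some libraries, with 29.7% as the highest share of 1 copy. Of 72 shares of a copy in the FP counts of a library, 58 had an exact 95% binomial interval (Clopper-Pearson) that held 25%, the value of an even split. FP671120.4 held the least, 23.3% of 22250 counts over all libraries (95% interval 22.7% to 23.8%), and FP236383.3 the most, 25.9% (25.3% to 26.5%). For the MIR6724 copies 71 of 72 intervals held 25%, from only 893 counts in all. Across the 18 libraries Pearson correlations of log2 CPM ran from 0.87 to 0.95 among the 3 FP entries, and it was 0.78 between MIR6724-1 and MIR6724-4. Between an FP and a MIR6724 entry of the 5 they ran from -0.20 to 0.13. These points share library size and may share reads between copies, and the correlations are descriptions.

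The 2 kinds of entry thus varied apart from each other although they lie in the same repeat units. The share of the 4 MIR6724 copies in the counts of all 8 copies is used here to follow this from library to library and not to compare levels per length. It was 4.88% (95% interval 3.94% to 5.96%), 0.171% (0.0352% to 0.498%) and 1.54% (0.927% to 2.39%) in the 3 co-expression libraries of day 3. The 3 intervals did not overlap between replicate 1 and the others, nor between replicates 2 and 3. In AF4-MLL cells on day 28 it was 2.39%, 6.02% and 8.28%, whereas on day 3 it stayed between 2.29% and 2.69%. In MLL-AF4 cells it was 2.92%, 4.24% and 4.67% on day 3 and 5.22%, 7.55% and 8.10% on day 28. The replicates of AF4-MLL day 28 thus spanned 2.39% to 8.28%, while the 6 group means ran from 2.19% to 6.96%.

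**Figure D2:**
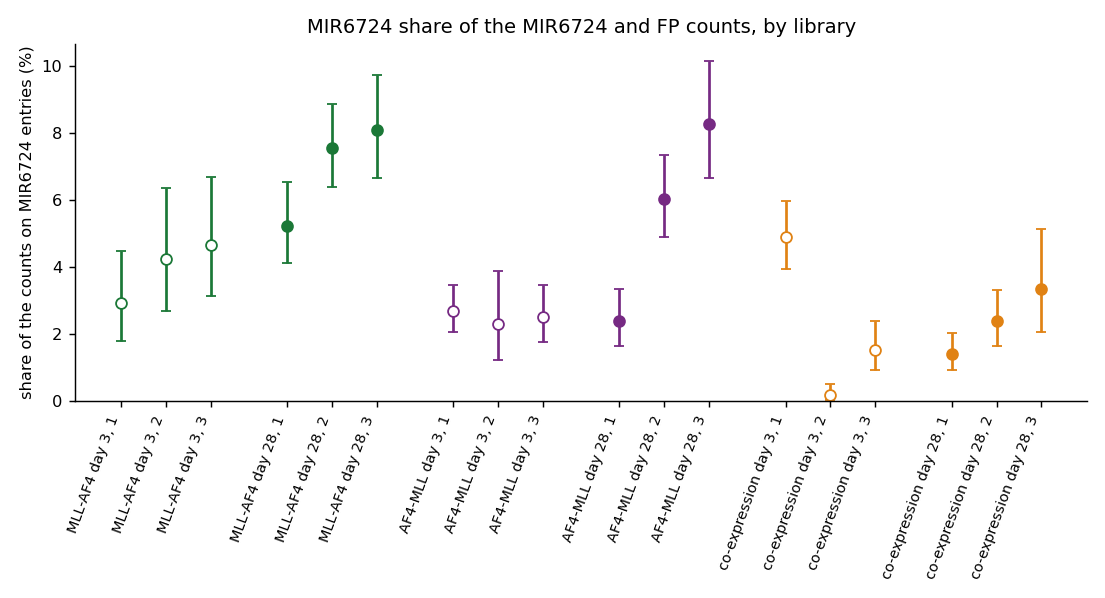
Share (%) of the 4 MIR6724 copies in the counts of the 4 MIR6724 and 4 FP copies, with 1 point for each of the 18 libraries and exact 95% binomial intervals; open points are day 3, filled points day 28. The co-expression libraries of day 3 spread from 0.171% to 4.88%.

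The MIR6724 level moved with a library measure that uses the G and C content of promoters. It was taken from counts on genes and not from the bases of the reads. It can therefore also rise where promoters rich in G and C are more open. For each library a GC measure was taken as the log2 ratio of the counts on 1184 genes with the most G and C in their promoter window to those on 1195 genes with the least. It ran from -0.08 in co-expression day 3 replicate 2, which had the lowest MIR6724 sum (2.24 CPM), to 0.21 in MLL-AF4 day 28 replicate 3, which had the highest (92.2 CPM). Across the 18 libraries Pearson r between the measure and the log2 CPM of the 4 MIR6724 copies was 0.90 and Spearman rho 0.89, and r was 0.85 without the 2 libraries farthest from the median of the measure. It was 0.83 on day 3, 0.97 on day 28 and 0.95 within groups. For the 4 FP copies r was 0.14 and rho 0.17, r was 0.46 without those 2 libraries, and it was -0.26 within groups. These correlations describe libraries whose groups differ in both measures.

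With the GC measure as a term in the fit, the MIR6724 entries no longer rose in MLL-AF4 cells. Their log2 changes turned to -0.38 for MIR6724-1 and -0.96 for MIR6724-4, neither called, while all 3 FP entries stayed called higher. The lower MIR6724-4 of co-expression against AF4-MLL cells on day 28 shrank from -1.66 to -0.33 (adjusted p = 0.89). On day 28 the measure was 0.18, 0.19 and 0.21 in MLL-AF4 cells, 0.03, 0.15 and 0.16 in AF4-MLL cells and 0.03, 0.03 and 0.06 in co-expression cells, so it moved with the settings as well. The part of the GC measure in the MIR6724 results was not tested beyond this fit, which was chosen after the counts had been seen.

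Other entries that share a name with genes of these repeats were counted for comparison, 22 in the table and 12 of them tested. They were picked by symbol and include MIR663AHG and MIR663B, which RefSeq places on other chromosomes. In MLL-AF4 cells 4 of these 12 were called higher on day 28 and none lower, with a median log2 change of 0.57 against 0.00 over all tested genes. They were FP236383.2 (log2 0.45, adjusted p = 0.020), MIR6724-3 (log2 1.35, adjusted p = 0.024), MIR3648-2, a microRNA gene whose other copy lies inside RNA45SN2 (log2 1.23, adjusted p = 0.034), and RNA5-8SN4, a 5.8S ribosomal RNA gene whose row merges 5 identifiers (log2 0.57, adjusted p = 0.00096). MIR6724-2 reached 1.32 (adjusted p = 0.051). RNA5-8SN1, RNA5-8SN2 and RNA5-8SN3, the 5.8S genes beside 3 of the FP copies, had 0.56, 0.23 and 0.50 and were not called. The long FP671120.1 and FP236383.1, MIR3648-1 and MIR663AHG had 0.44, 0.55, 0.72 and 0.80, also without a call. All 12 had every day 28 library above every day 3 library, as 9.67% of all tested genes did.

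In AF4-MLL cells FP236383.2 alone of the 12 was called, lower on day 28 by -0.46 (adjusted p = 0.017), and in co-expression cells none was. On day 3 FP236383.2 (log2 0.57, adjusted p = 0.016) and RNA5-8SN4 (log2 0.54, adjusted p = 0.026) were higher in AF4-MLL than in MLL-AF4 cells. Some of the 12 were also called in the comparisons that chose the entries. In co-expression against MLL-AF4 cells 6 were called lower on day 28, where 1.17% of all tested genes were called. FP236383.2 alone was called there on day 3, higher, where 1.81% were called. In AF4-MLL against MLL-AF4 cells on day 28 none was called. Many of these reads can come from the same repeats, so the neighbours are not independent evidence for the 5 entries.

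The 5S ribosomal RNA comes from another repeat, on chromosome 1, and is transcribed by RNA polymerase III. All 17 listed 5S genes were tested, and none was called in any of the 12 comparisons by edgeR. In MLL-AF4 cells their median log2 change from day 3 to day 28 was -0.05, and 0 of the 17 had an unadjusted p under 0.05.

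Genes of the RNA polymerase I machinery, 21 tested of 22, had 1 called gene in each of 3 of these comparisons, where 2.87%, 1.28% and 0.142% of all tested genes were called. UBTF, which encodes the factor that binds the open ribosomal repeats, was called higher on day 28 in MLL-AF4 cells (log2 0.64 ± 0.16, adjusted p = 0.0080). TAF1D, which encodes a subunit of the promoter selectivity factor, was called on day 3, higher in co-expression cells over AF4-MLL cells (log2 0.66 ± 0.14, adjusted p = 0.0024) and lower in AF4-MLL than in MLL-AF4 cells (log2 -0.68 ± 0.16, adjusted p = 0.030). On day 28 UBTF was also called lower in co-expression than in MLL-AF4 cells (log2 -0.52, adjusted p = 0.023). The same held in AF4-MLL against MLL-AF4 cells (log2 -0.62, adjusted p = 0.023). In those comparisons 1.17% and 0.0793% of all tested genes were called, and they share the MLL-AF4 libraries of day 28 with its rise. No other gene of the list was called in the 7 comparisons that did not choose the entries, and 0 of 14 genes for nucleolar chromatin was called in any comparison. These counts report open chromatin at the genes and not their transcripts.

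Genes were ranked by how like their log2 CPM was to the summed level of the 5 entries across the 18 libraries. The entries and the repeat entries picked by symbol were left out. The first were PPM1F (Pearson r 0.82), TOMM22 (0.80), RF01518 (0.79), AC009005.1 (0.79) and MAP3K9 (0.78). The row of RF01518 merges several identifiers, and whether it or the others collect reads from the repeats was not checked. PPM1F encodes a protein phosphatase, TOMM22 a subunit of the outer mitochondrial membrane import complex and MAP3K9 a protein kinase. Over all 17660 tested genes the middle 90% of such correlations lay between -0.45 and 0.46. Within groups, after each group's mean had been taken off, r was 0.90 for RF01518 and 0.43 for TOMM22.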

How the data were processed

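The authors deposited a table of raw counts per gene for 18 ATAC-seq libraries, and the submitters' processing notes name bcl2fastq, Bowtie2, HTSeq and the build GRCh38. Versions, the region counted around each gene, the handling of reads with several matches and of duplicates, and any shift to the insertion site are not given in the sources used here, and reads of repeat copies could be placed by chance or dropped. Multi-copy entries were therefore read together. Of the rows, 116 merge several identifiers. The members and gene lists were chosen with earlier results of these data known.

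Counts were filtered with filterByExpr (minimum count 10, minimum total 15), scaled by TMM and fitted with edgeR 4.0.16 in R 4.3.3 as 6 groups, with quasi-likelihood F tests and Benjamini-Hochberg adjustment. The SE is the absolute log2 change divided by the square root of F. DESeq2 1.42.0, the tool of the study, was an alternative. The fit was tested on simulated data. Named genes were the 5 entries, other repeat entries that were tested, called genes of the lists and the 5 genes most like the summed entries. Replicate numbers were not used to pair libraries in the main fit. Of 27 correlations between deviations of same-numbered libraries, 0 exceeded 0.1 (range -0.042 to 0.025). Counting error lowers such correlations, so they cannot exclude a pairing. Intervals of shares are exact binomial at 95% and cover counting error only. RefSeq GRCh38.p14 gave positions for 2 of the 5 entries and the sequences. The positions of the FP entries relative to 18S genes came from annotation columns supplied with the study. Figures were drawn with matplotlib 3.10.9.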

Additional observations from a re-analysis of the deposited data

Results flagged for a closer look

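The following effects ran in opposite directions in 2 settings or on 2 days, with every library of each group on its side, and contain comparisons from which the entries were chosen, so the difference itself was not tested. FP671120.3 decreased over time in AF4-MLL cells and increased in MLL-AF4 cells, a difference of -1.10 on the log2 scale, which is also the difference between the 2 days of AF4-MLL against MLL-AF4 cells for this entry. FP236383.3 was higher in AF4-MLL than in MLL-AF4 cells on day 3 and lower on day 28, a difference of -0.96. FP671120.4 and FP236383.3 were higher in co-expression than in MLL-AF4 cells on day 3 and lower on day 28, with differences of -1.15 and -1.06. Between 13.4% and 20.4% of all tested genes had groups that did not overlap in the single comparisons involved. These entries can share reads, and all 4 values rest on the same 3 MLL-AF4 libraries of each day.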

How the results depend on the processing

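The number of called entries depended on the tool and scaling. With DESeq2's Wald test it was 0 in AF4-MLL against MLL-AF4 cells on day 3 (3 with edgeR) and 0 in co-expression against AF4-MLL cells on day 28 (1). It was 0 in both the AF4-MLL and the co-expression day comparison (2 each) and 3 in that of MLL-AF4 cells (5). Of the 54425 genes in the table DESeq2 called 0.00367% and 0.0698% in the first 2 comparisons. In the AF4-MLL, co-expression and MLL-AF4 day comparisons it called 0.114%, 0.121% and 0.505%. Both MIR6724 entries had no adjusted p with DESeq2 in these 3 day comparisons. Scaled by library size only, the day comparisons called 4, 5 and 0 entries in AF4-MLL, co-expression and MLL-AF4 cells. Of all tested genes 87.7%, 88.1% and 64.9% were called there. The numbers in AF4-MLL and co-expression cells therefore say little about the entries. Without mitochondrial genes 1 entry, and with only its own groups in the fit 0 entries, were called in the co-expression day comparison. In these fits 0.293% and 0.622% of all tested genes were called. With the GC term, added after seeing the data, 3 were called in the MLL-AF4 day comparison and 0 in co-expression against AF4-MLL cells on day 28. With that term 0.606% and 0.81% of all tested genes were called in these 2 comparisons. Leaving out 1 library gave 0 to 3, 0 to 3 and 3 to 5 called entries in the AF4-MLL, co-expression and MLL-AF4 day comparisons, 0 to 3 in AF4-MLL against MLL-AF4 cells on day 3, 0 to 2 in co-expression against AF4-MLL cells on day 28 and 0 in the remaining 2. The summed level of the 5 entries rose by 0.68 (log2) from day 3 to day 28 in MLL-AF4 cells and by 0.50 per nuclear count.

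Reversed signs included the following, uncalled differences among them. Scaling by library size only gave -0.28, -0.18 and -0.24 for FP671120.3, FP671120.4 and FP236383.3 over time in MLL-AF4 cells and -1.01 for MIR6724-1 over time in AF4-MLL cells. The GC term gave -0.38 and -0.96 for MIR6724-1 and MIR6724-4 over time in MLL-AF4 cells, -0.0069 for MIR6724-1 over time in AF4-MLL cells, 0.026 for MIR6724-4 over time in co-expression cells, -0.59 for MIR6724-1 in AF4-MLL against MLL-AF4 cells on day 3, 0.020 for MIR6724-4 in co-expression against MLL-AF4 cells on day 28, -0.040 for FP671120.3 in co-expression against AF4-MLL cells on day 3, 0.10 and 0.99 for MIR6724-1 and MIR6724-4 in the change over time of co-expression against MLL-AF4 cells, 0.38 and 2.34 in that of AF4-MLL against MLL-AF4 cells, 0.35 for MIR6724-4 in AF4-MLL against MLL-AF4 cells on day 28 and -0.48 for MIR6724-1 in co-expression against MLL-AF4 cells on day 3. Leaving out 1 library turned the sign of uncalled differences within these ranges: -0.089 to 0.23 and -0.014 to 0.37 for FP671120.3 and FP671120.4 in co-expression against AF4-MLL cells on day 3, -0.14 to 0.31 for MIR6724-1 over time in AF4-MLL cells, -1.84 to 0.59 and -1.16 to 1.82 for MIR6724-1 and MIR6724-4 over time in co-expression cells, -2.60 to 0.38, -2.64 to 0.34 and -0.32 to 0.18 for MIR6724-4 in the change over time of co-expression against AF4-MLL, co-expression against MLL-AF4 and AF4-MLL against MLL-AF4 cells, and -1.29 to 0.48 and -2.69 to 0.29 for MIR6724-1 and MIR6724-4 in co-expression against MLL-AF4 cells on day 3. Over 515 refits of an entry's difference, 28 changed the sign of a difference called in neither fit. The replicate block gave 2, 5 and 2 called entries in the AF4-MLL, MLL-AF4 and co-expression day comparisons and changed no call. The cause was not tested in any of these cases. Depth limited the MIR6724 entries most, since they had at most 43 counts in a library.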
